A study of Mus musculus with 6 samples.

Results

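Protein kinase C (PKC) is a family of serine/threonine kinases that act downstream of receptors coupled to phospholipase C. The data described here are the circular RNAs (circRNAs) made from the genes of PKC beta (Prkcb) and PKC epsilon (Prkce) in the mouse hippocampus. A circRNA forms when the end of an exon is spliced back to the start of the same or an earlier exon, which leaves a ring. The members are all circRNAs of the deposited table whose list of host genes holds the Ensembl identifier of Prkcb or Prkce. They number 21 of 10652 circRNAs, with 11 from Prkcb and 10 from Prkce. Both genes were picked after an earlier look at the same data, in which mmu_circRNA009656 of Prkcb stood out among circRNAs higher under stress and the Prkce sum among lower kinase hosts. Their values under stress and in controls are therefore given as a description, with no p-value.

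The study set 3 hippocampal libraries from stressed mice (chronic unpredictable stress, CUS) against 3 from Control mice. All animals were adult male C57BL/6J mice (strain label C57BL/6), 8 to 10 weeks old at purchase, with no transgene or drug named in the labels. The CUS mice met changing mild stressors for 4 weeks, such as restraint, food or water deprivation, cold swimming and a tilted cage, and the labels name no procedure for the Control mice. The labels call the samples independent but do not say that each came from a single mouse, so the spread between libraries may be partly technical. RNA was selected for poly(A) tails before sequencing, which circRNAs lack, so recovery of these rings can be low and uneven.

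When a receptor activates phospholipase C, the lipid diacylglycerol and a rise in calcium are produced, and PKC enzymes bind the lipid through their C1 domains. PKC beta is a conventional form that also needs calcium, which it binds through a C2 domain, and its gene gives the beta I and beta II proteins by use of different last exons. PKC epsilon responds to diacylglycerol without needing calcium. In hippocampal neurons PKC enzymes are known for roles in transmitter release and in synaptic plasticity. A circRNA of these genes is made from the same primary transcript as the mRNA, and its level is not a measure of mRNA or protein.

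Prkcb (ENSMUSG00000052889) lies on the plus strand of chromosome 7 from 122288751 to 122634402, a span of 345652 bases, and Prkce (ENSMUSG00000045038) on the plus strand of chromosome 17 from 86167785 to 86657919, a span of 490135 bases (GRCm38, GENCODE vM21). These are positions of the genes, since positions of the circRNAs were not used here. All 11 Prkcb circRNAs were classed as exonic, against 8 of the 10 from Prkce, and the other 2, mmu_circRNA004900 and mmu_circRNA004901, were classed as intronic.

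Host lists of the Prkcb circRNAs gave a partial view of where on the gene they lie. Of the 11 Prkcb circRNAs, 6 also listed small genes that sit inside Prkcb introns on the same strand, while all 10 from Prkce listed Prkce alone. In the whole table, 7.38% of circRNAs listed several genes. mmu_circRNA009654 and mmu_circRNA009655 listed the processed pseudogene Gm14388 (chromosome 7, 122442023 to 122442499) and the small RNA gene Gm26414 (122446858 to 122447126). Both of these genes lie in the 32173-base intron between exons 3 and 4 of the Prkcb-202 transcript. mmu_circRNA009655 listed in addition Gm44745 (122463438 to 122466160), which lies between exons 5 and 6. mmu_circRNA009660, mmu_circRNA009661, mmu_circRNA009662 and mmu_circRNA009663 all listed Gm44746 (122590935 to 122592283), which lies in the 4419-base intron between exons 13 and 14. Gm44745 and Gm44746 carry the annotation class TEC, a label for unverified transcripts.

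Identifier numbers ran in the same order. Among 3752 neighbouring identifiers with different hosts on the same chromosome, 99.2% had the later host at the higher start position. Within Prkcb, the circRNAs listing genes near exons 3 to 6 had lower numbers than those listing the gene between exons 13 and 14. The numbers of mmu_circRNA009656 to mmu_circRNA009659, which list Prkcb alone, fall between these sets.

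**Figure D1:**
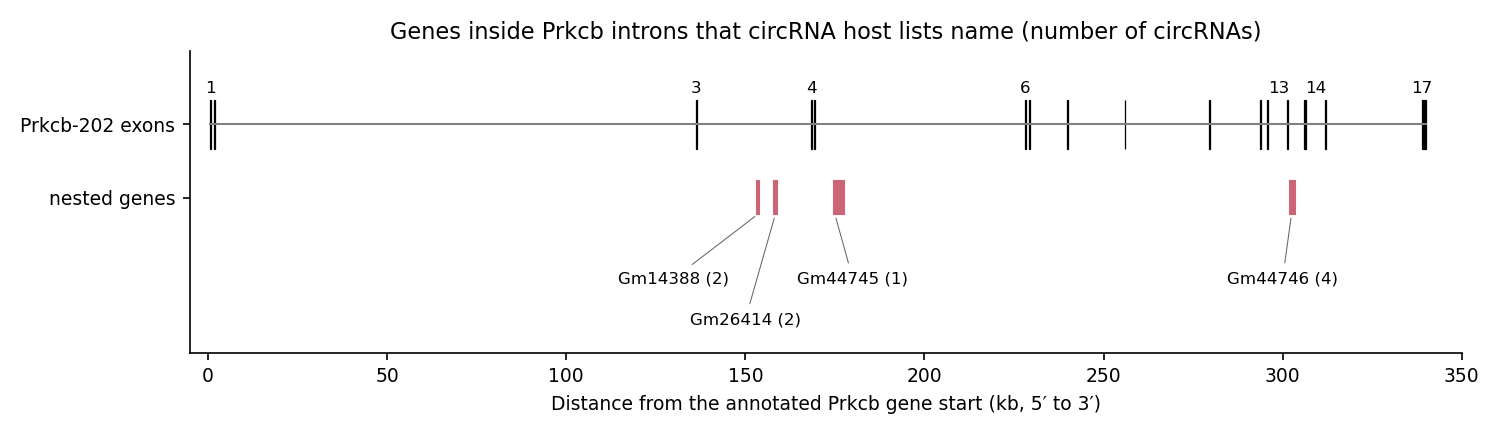
Map of Prkcb drawn to scale along the distance from the annotated gene start in kilobases, with the 17 exons of transcript Prkcb-202 as black bars (some numbered) and the genes inside its introns that circRNA host lists name as coloured boxes, each with the number of Prkcb circRNAs that list it. Gm14388 and Gm26414 lie between exons 3 and 4, Gm44745 between exons 5 and 6, and Gm44746, listed by 4 circRNAs, between exons 13 and 14.

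Of the exons that border the introns whose genes were listed by more than 1 circRNA, 3 are shown. These are exons 3, 4 and 14, and exon 13 is left out. Sequences are from the GENCODE vM21 transcript Prkcb-202 (GRCm38, plus strand, 5′ to 3′). Capitals mark the 12 bases that border the intron. The exons that each circRNA holds were not known here.

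Exon 3, chr7:122424959-122425041: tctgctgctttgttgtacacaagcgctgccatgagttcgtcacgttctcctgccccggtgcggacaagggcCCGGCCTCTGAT

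Exon 4, chr7:122457215-122457326: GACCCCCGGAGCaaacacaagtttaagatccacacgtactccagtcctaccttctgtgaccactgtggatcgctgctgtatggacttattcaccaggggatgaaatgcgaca

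Exon 14, chr7:122594603-122594683: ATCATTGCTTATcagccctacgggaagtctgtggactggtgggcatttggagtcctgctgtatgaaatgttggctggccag

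All 3 exons are coding. Exons 3 and 4 code for stretches of the regulatory region that holds the C1 domains, and exon 14 for a stretch of the kinase domain.

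Levels below are 10 to the deposited log10 value. The authors' table lists missing values at 0, which does not show that a circRNA was absent. The levels were divided by a factor for each library and carry no stated unit, and the number of reads behind them is unknown, so no counting interval is given. They were not scaled by circRNA length here, so comparisons run across libraries within a circRNA, and shares within a gene are shares of the deposited levels. Summed levels ran from 1990255 to 2050720 over the libraries. The Control libraries held 4606, 4526 and 4329 circRNAs above 0 (replicates 1 to 3) and the CUS libraries 3991, 4238 and 4273. Every CUS library thus held fewer than every Control library, and CUS replicate 1 had the fewest. Over the whole table a listing at 0 was therefore more frequent in the CUS libraries. The part of this in the members listed at 0 was not tested. In bulk tissue, fewer cells of a type and less RNA per cell cannot be told apart.

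Most of the 21 circRNAs were seen in few libraries. Of the 21, 5 were above 0 in 1 library, 6 in 2, 9 in 3 to 5 and 1 in all 6, and among all circRNAs 36.9% were above 0 in 1 library and 7.55% in all 6. Above 0 in both groups were 13 of the 21 (61.9%), against 49.6% of the table. The remaining members were seen in 1 group alone, 6 in the Control libraries (28.6%, against 26.95% of the table) and 2 in the CUS libraries (9.52%, against 23.4%). Nothing is read from these shares, since the genes were picked on this contrast. By the filter for testing, above 0 in at least 3 libraries, 10 of the 21 remained (47.6%, against 36.6% of the table), 5 from each gene. A circRNA that reaches 3 libraries through a single group has to differ between groups, which holds for 2 of the 10, mmu_circRNA009656 and mmu_circRNA009658.

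The summed level of all 11 Prkcb circRNAs was 1898, 2620 and 2628 in the Control libraries, replicates 1 to 3, and 525, 2655 and 1789 in the CUS libraries, in the same order. The groups overlapped, since CUS replicate 2 was the highest of the 6 libraries and CUS replicate 1 the lowest. The log2 difference, CUS minus Control on log2(sum + 45.5), was -0.76 with SE 0.53 (limma). Without CUS replicate 1 it was -0.11. In that library, which also has the fewest circRNAs above 0 over the whole table, only 2 Prkcb circRNAs were listed above 0, against 5 to 7 in the other libraries.

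The make-up of the Prkcb sum differed between libraries. mmu_circRNA009656, an exonic circRNA listing Prkcb alone, was listed at 0 in all 3 Control libraries and was at 327, 796 and 576 in CUS replicates 1 to 3. It carried 62.4%, 30.0% and 32.2% of the Prkcb sum in the CUS libraries. mmu_circRNA009658, also exonic and listing Prkcb alone, showed the reverse arrangement, at 222, 315 and 247 in the Control libraries and at 0 in every CUS library. The pair were above 0 in no library together. No fold is given for either, since a group is listed at 0.

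mmu_circRNA009657 was at 415, 0 and 500 in the Control libraries and listed at 0 in the CUS libraries. mmu_circRNA009659 was at 0, 683 and 0 in the Control libraries and 0, 86.1 and 0 in the CUS libraries, and mmu_circRNA009653 at 0, 0 and 61.2 and at 0, 0 and 182. Summed over the 5 circRNAs listing Prkcb alone, levels overlapped at 637, 998 and 809 in the Control libraries and 327, 882 and 758 in the CUS libraries. That overlap rested on mmu_circRNA009656. Without it the other 4 were at 0, 86.1 and 182 in the CUS libraries, below every Control library. Leaving it out lowers the CUS libraries alone. The split by host list and this removal were made after the values were seen.

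The 4 circRNAs that list Gm44746 carried the largest part of the Prkcb sum in 4 of the 6 libraries. Their sum was 1260, 1372 and 830 in the Control libraries and 0, 1347 and 881 in the CUS libraries, or 66.4%, 52.4% and 31.6% of Prkcb in Control and 0%, 50.8% and 49.2% in the CUS libraries. mmu_circRNA009661, the Prkcb circRNA of highest mean, was at 449, 1210 and 317 in the Control libraries and 0, 108 and 661 in the CUS libraries, with overlap. mmu_circRNA009660 was at 0, 161 and 513 in the Control libraries and 0, 288 and 220 in the CUS libraries. mmu_circRNA009662 and mmu_circRNA009663 were each above 0 in the same 2 libraries. They stood at 415 and 396 in Control replicate 1 and at 471 and 481 in CUS replicate 2, no more than 8 of the smallest steps between deposited levels apart, and may share reads. Counted once, they leave a log2 difference of -0.75 for Prkcb.

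The 2 circRNAs that list Gm14388 and Gm26414 overlapped between groups. mmu_circRNA009654 was at 0, 250 and 801 in the Control libraries and 0, 425 and 149.5 in the CUS libraries. It was above 0 in the same 4 libraries as mmu_circRNA009660, which lists the gene between exons 13 and 14. mmu_circRNA009655 was at 189 in Control replicate 3 and 198 in CUS replicate 1 and listed at 0 in the other libraries.

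**Figure D2:**
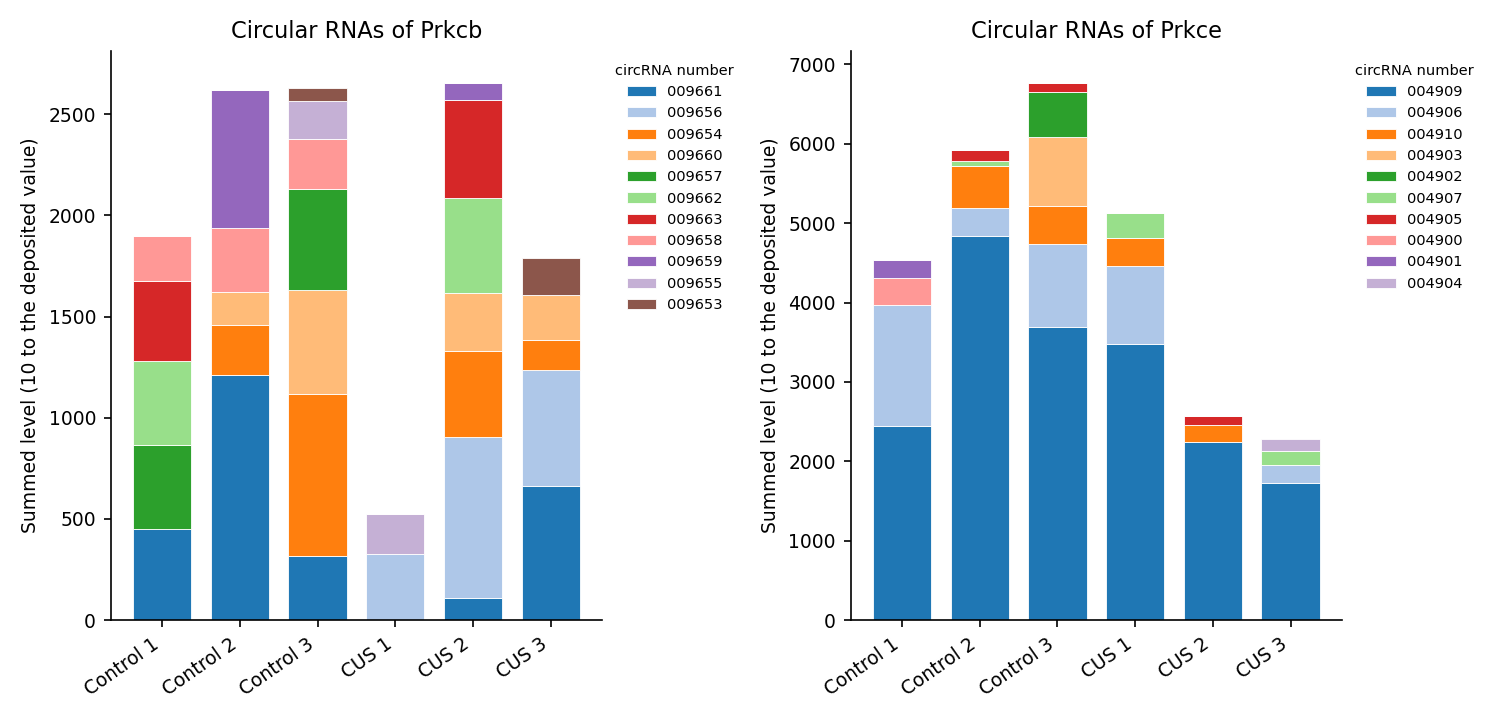
Stacked bars of the level (10 to the deposited log10 value) of each Prkcb circRNA (left) and Prkce circRNA (right) in the 3 Control and 3 CUS libraries, with colours for single circRNAs ordered by mean level and the bar height giving the sum for the gene. Prkcb bars change in composition between libraries and mmu_circRNA009656 appears in the 3 CUS bars alone, while mmu_circRNA004909 is the largest segment of every Prkce bar.

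The summed level of the 10 Prkce circRNAs was 4531, 5918 and 6766 in the Control libraries and 5133, 2566 and 2286 in the CUS libraries. CUS replicates 2 and 3 lay below all Control libraries, and CUS replicate 1 lay within the Control range, so the groups overlapped. The log2 difference was -0.85 with SE 0.37 (limma), and -1.21 without CUS replicate 1.

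A single circRNA carried most of the Prkce level. mmu_circRNA004909, exonic and the only member above 0 in all 6 libraries, was at 2443, 4836 and 3694 in the Control libraries and 3479, 2240 and 1721 in the CUS libraries. The means were 3658 ± 1197 and 2480 ± 903 (SD, n = 3 each), with overlapping groups and a log2 difference of -0.56 with SE 0.44. Its share of the Prkce sum was 53.9%, 81.7% and 54.6% in Control and 67.8%, 87.3% and 75.3% in the CUS libraries.

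The rest of Prkce had a larger difference on the log2 scale than mmu_circRNA004909. Without it, the other 9 circRNAs summed to 2088, 1082 and 3072 in the Control libraries and 1654, 325 and 565 in the CUS libraries, a log2 difference of -1.43, and the groups overlapped through CUS replicate 1. The difference between these values and those of mmu_circRNA004909 was not tested. mmu_circRNA004906 was the next by mean level, at 1528, 355 and 1037 in the Control libraries and 979, 0 and 231 in the CUS libraries. Its log2 difference was -1.91 with SE 1.10, and was -0.73 without CUS replicate 2, where it is listed at 0.

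mmu_circRNA004910 was at 0, 527 and 481 in the Control libraries and 354, 215 and 0 in the CUS libraries. mmu_circRNA004907 was the only tested Prkce circRNA with a higher fitted value in CUS, at 321, 0 and 182 in the CUS libraries against 0, 60.5 and 0 in the Control libraries, a log2 difference of 1.37 with SE 1.00. mmu_circRNA004905 stayed low throughout, at 0, 139 and 114 in the Control libraries and 0, 110 and 0 in the CUS libraries. All of these overlapped between groups.

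The other 5 Prkce circRNAs were each above 0 in a single library. mmu_circRNA004903 was at 870 and mmu_circRNA004902 at 569 in Control replicate 3, where together with the rest they made the highest Prkce sum. Both intronic circRNAs, mmu_circRNA004900 at 338 and mmu_circRNA004901 at 222, were above 0 in Control replicate 1. mmu_circRNA004904 was at 152 in CUS replicate 3.

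**Figure D3:**
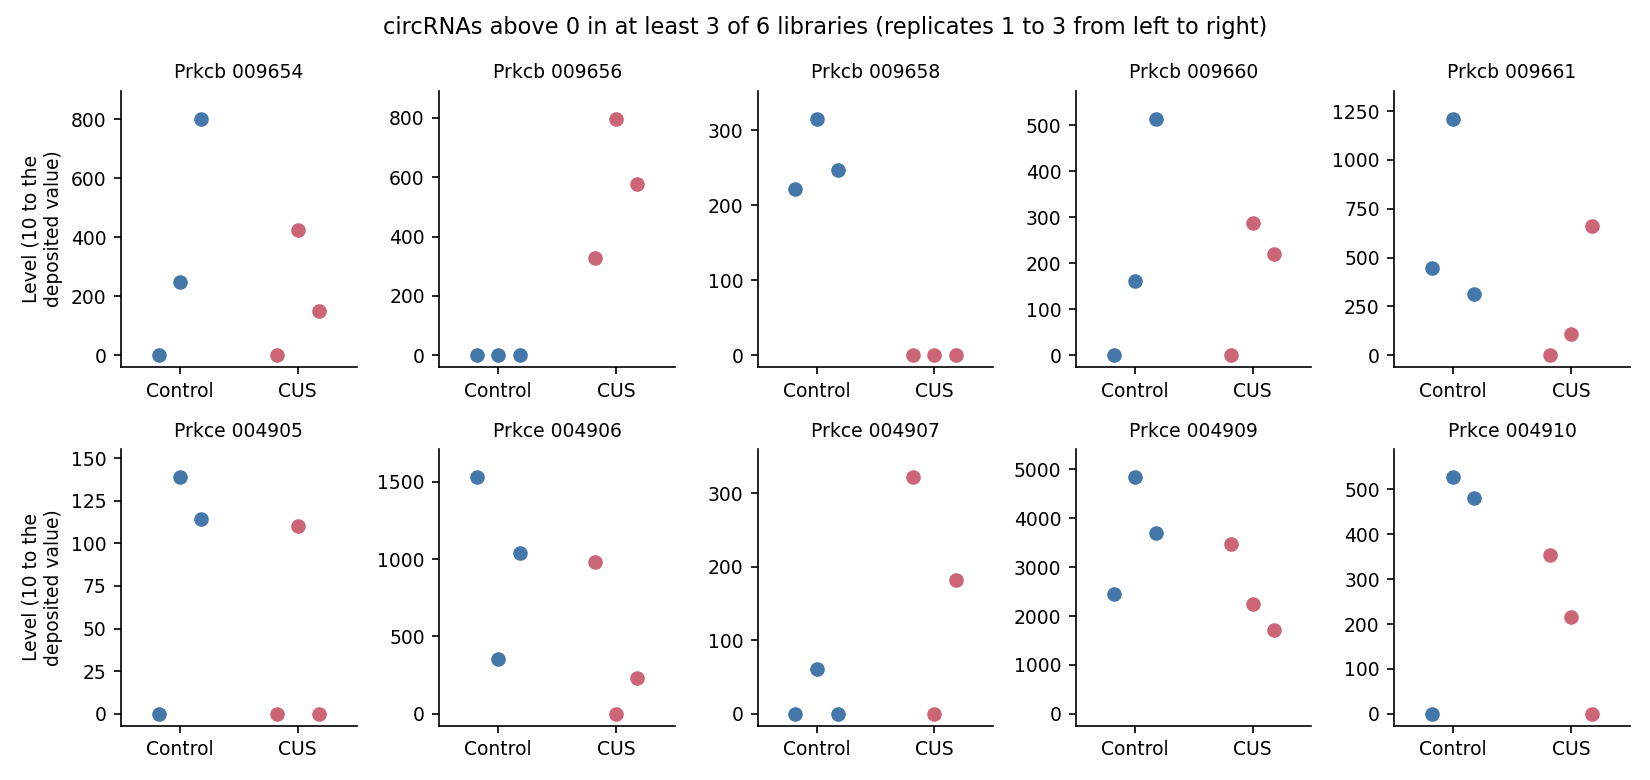
Level (10 to the deposited log10 value, linear axes that differ between panels) in each library for the 10 circRNAs of Prkcb (top) and Prkce (bottom) above 0 in at least 3 of 6 libraries, each dot a library with Control in blue and CUS in red. The groups separate for Prkcb mmu_circRNA009656, at 0 in Control, and mmu_circRNA009658, at 0 in CUS, and overlap in the other 8 panels.

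Across the table, limma called 0 of 3896 circRNAs (0%) and 0 of 2227 host sums (0%) at an adjusted p under 0.05, and the members are among those not called. At an unadjusted p under 0.05 it counted 234 circRNAs (6.01%) and 127 host sums (5.70%). Groups did not overlap for 2 of the 10 tested members, 1 higher and 1 lower in CUS, and for 423 of the 3896 circRNAs (10.9%), of which 225 (5.78% of those tested) were higher and 198 (5.08%) lower. Of the 3896, 73 (1.87%) were above 0 in all 3 CUS libraries and listed at 0 in the Control libraries, as mmu_circRNA009656 was, and 94 (2.41%) showed the reverse, as mmu_circRNA009658 did. Fitted differences were above 0 for 2 of the 10 tested members and below 0 for 8, beside 47.2% above and 52.8% below among all tested. Since the genes were picked on this contrast, nothing is read from these counts.

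How far a gene's level rested on a single circRNA differed between Prkcb and Prkce. Over the 6 libraries together, mmu_circRNA004909 made up 67.7% of the Prkce sum and mmu_circRNA009661 22.7% of the Prkcb sum. Among the 124 hosts with at least 10 circRNAs the median leading share was 26.0%, with a range from 8.94% to 78.5%, and Prkce ranked 5 and Prkcb 86 from the highest. In each of the 6 libraries the highest Prkce circRNA was mmu_circRNA004909. The highest Prkcb circRNA was mmu_circRNA009661 in Control replicates 1 and 2 and CUS replicate 3, mmu_circRNA009654 in Control replicate 3 and mmu_circRNA009656 in CUS replicates 1 and 2.

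The share of mmu_circRNA009661 in Prkcb was 23.7%, 46.2% and 12.0% in Control and 0%, 4.05% and 36.9% in the CUS libraries. The mean difference, CUS minus Control, was -13.6 percentage points for mmu_circRNA009661 and 13.4 percentage points for the Prkce leader. If the highest Prkcb circRNA of each library is taken instead, the Prkcb difference is 9.65 percentage points, of the opposite sign. Without Control replicate 2, mmu_circRNA009656 becomes the leader by mean, and the difference is 41.5 percentage points. That circRNA is listed at 0 in every Control library, so its difference could only be above 0. It is also the highest in CUS replicates 1 and 2 when the highest of each library is taken. The sign for Prkcb differed with the choice of circRNA, and no direction is read from it. For Prkce the circRNA is the same under each choice, and the groups overlap.

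**Figure D4:**
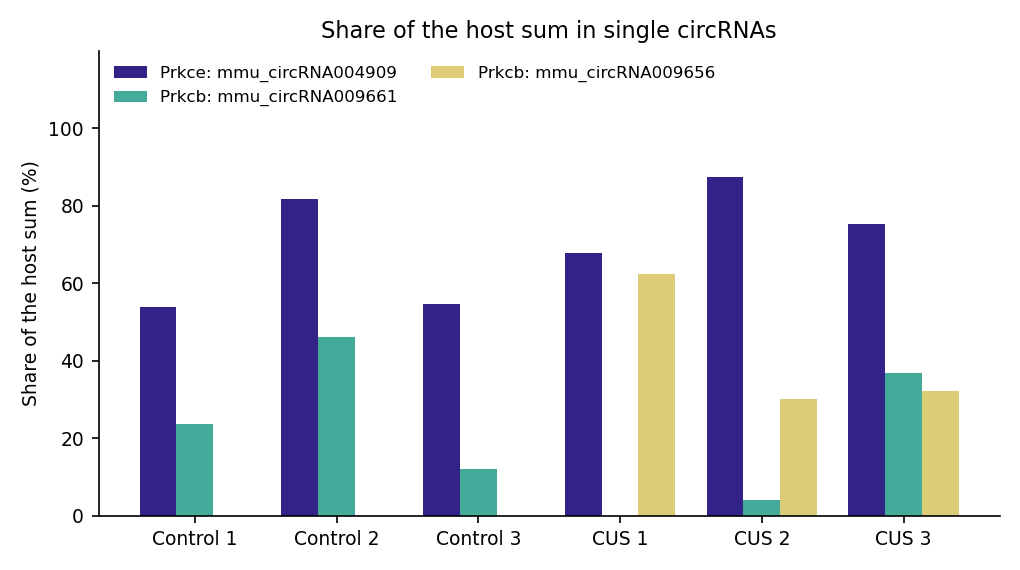
Bars give the share (%) of the gene's summed circRNA level carried by mmu_circRNA004909 in Prkce and by mmu_circRNA009661 and mmu_circRNA009656 in Prkcb, in each of the 6 libraries. The Prkce share lies between 53.9% and 87.3%, and mmu_circRNA009656 is at 0 in Control and between 30.0% and 62.4% in CUS.

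Both genes are longer than the median of 259697 bases over the hosts with at least 10 circRNAs. Prkcb had 3.18 and Prkce 2.04 circRNAs per 100 kb of gene, against a median of 4.82 over those hosts. With 11 and 10 circRNAs the genes sit near that cutoff. How far a density below this median follows from that cutoff or from gene length was not tested. By summed level over all libraries, Prkce ranked 24 and Prkcb 191 of 3772 hosts.

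Other members of the PKC family gave few circRNAs. Of 15 family genes listed, 6 had a circRNA and 4 had a sum above 0 in at least 3 libraries, with 1 fitted value above 0 and 3 below 0. Over all 2227 hosts 47.8% were above and 52.2% below 0, and limma called 0. Prkd1, protein kinase D1, a diacylglycerol-binding kinase that PKC can activate, was at 352.5, 0 and 261 in the Control libraries and 0, 414 and 544 in the CUS libraries over 3 circRNAs. Prkca, the conventional PKC alpha, was above 0 in Control replicate 2 (646) and CUS replicate 2 (242) alone. Prkcz, an atypical form that does not respond to diacylglycerol, was at 1235 in Control replicate 2 and listed at 0 elsewhere.

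The upstream list held receptors, Gq proteins and phospholipases C. Of 24 genes, 11 had a circRNA and 7 were tested, 3 with a higher and 4 with a lower fitted value and a median log2 difference of -0.75, beside -0.06 over all 2227 hosts. Grm5, a metabotropic glutamate receptor gene, had a log2 difference of -0.75 with SE 0.34 and overlapping groups. Plcb1, a phospholipase C gene, was at 145, 0 and 0 in the Control libraries and 1427, 159 and 152 in the CUS libraries, with groups that did not overlap, as for 11.4% of host sums. Ntrk2, the BDNF receptor gene, was at 0, 761 and 253 in the Control libraries and 1108, 352 and 215 in the CUS libraries.

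The lipid list split evenly, with 5 higher and 5 lower of 10 tested and a median of 0.01. It is a mixed list, since its tested hosts are diacylglycerol kinase genes, IP3 receptor genes, Phlpp1, Phlpp2 and Pdpk1. Dgkb, a diacylglycerol kinase gene whose product removes the PKC activator, was at 3025, 3162 and 3357 in the Control libraries and 1120, 3125 and 3775 in the CUS libraries over 12 circRNAs. As with Prkcb, CUS replicate 1 was its lowest library. Itpr1, an IP3 receptor gene, was at 765, 845 and 351 in the Control libraries and 472, 522 and 0 in the CUS libraries. On the higher side, Pdpk1, whose product phosphorylates the PKC activation loop, was at 96.6, 1414 and 263 in the Control libraries and 1058, 915 and 1375 in the CUS libraries. Dgkh, another diacylglycerol kinase gene, was at 174, 0 and 0 in the Control libraries and 0, 387 and 511 in the CUS libraries.

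Among other proteins with a C1 domain, 2 of 9 genes were tested. Unc13c, a vesicle priming gene, was at 536, 0 and 1037 in the Control libraries and 0, 0 and 73.4 in the CUS libraries. Its log2 difference was -2.29 with SE 1.38, and with zeros in both groups this value depends on the pseudocount. Chn1, a Rac GTPase-activating protein gene, was at 0, 0 and 500.04 in the Control libraries and 772, 0 and 690 in the CUS libraries.

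In the list of PKC substrates and anchors, 14 of 25 genes had a circRNA and 9 were tested, 6 higher and 3 lower with a median of 1.02. The classic substrates Marcks and Gap43 had none. Grin2b, an NMDA receptor subunit gene, had a log2 difference of 1.20 with SE 0.44 and overlapping groups. Kcnma1, a potassium channel gene, had a log2 difference of 2.42 with SE 1.01, and its groups did not overlap. Groups did not overlap for 2 of the 9 tested hosts of this list, beside 11.4% of all host sums. Grin2a, another NMDA receptor subunit gene, was at 2006, 1941 and 4471 in the Control libraries and 1804, 2146 and 1449 in the CUS libraries. Dlg4, the PSD-95 scaffold gene, was at 804, 328 and 0 in the Control libraries and 0, 164 and 266 in the CUS libraries. Limma called 0 hosts of any of these lists at an adjusted p under 0.05. At an unadjusted p under 0.05 it counted 1 of 7 upstream hosts, 0 of 10 in the lipid list and 0 of 2 in the C1-domain list. In the substrate list it counted 3 of 9, beside 5.70% of all 2227 host sums. No such count is given for the family list, which holds Prkcb and Prkce. The lists were chosen with earlier results of these data known, and nothing is read from these counts or medians. The numbers higher and lower were the same with quantile normalization and with equal summed levels. Other pseudocounts were not tried for the lists, and the fitted values of hosts listed at 0 in some libraries depend on it.

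**Figure D5:**
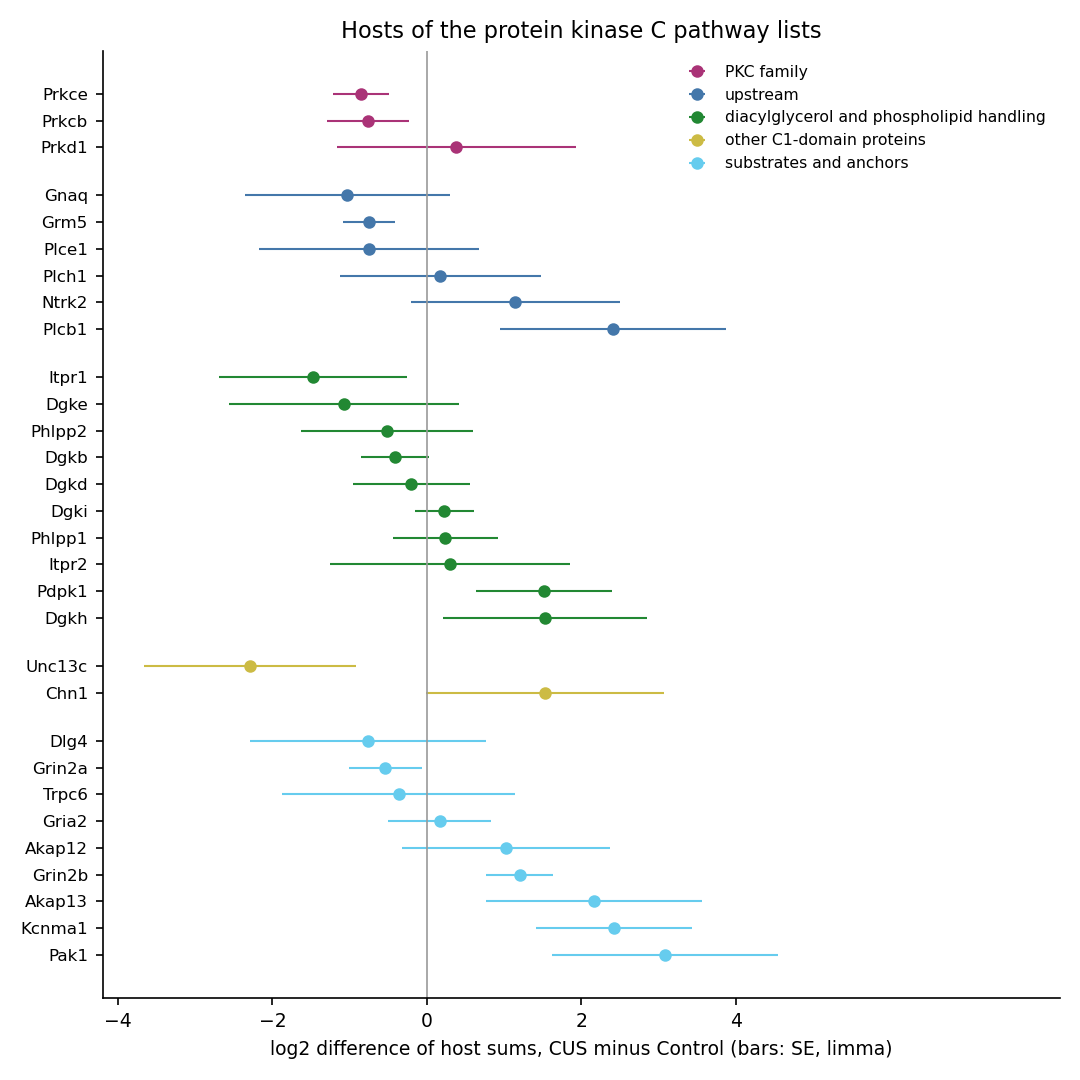
Log2 difference of host sums, CUS minus Control, with bars giving the SE (limma), for 30 of the 32 tested hosts of the 5 PKC lists, each list in its own colour. Prkcb and Prkce lie at -0.76 and -0.85 with Prkd1 above 0 in the family list, and the substrate list has 6 of 9 values above 0.

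The hosts with profiles most like those of Prkcb and Prkce were sought among 919 other hosts above 0 in all 6 libraries. Likeness was the root mean square difference of log2(sum + 45.5) after centring each host on its own mean over the 6 libraries. For Prkcb these were Qser1 (0.14), Mycbp2 (0.25) and Hmbox1 (0.26), each with its lowest level in CUS replicate 1, as Prkcb has. For Prkce they were Arhgap21 (0.22), Arsb (0.24) and Atrnl1 (0.26), each with CUS replicates 2 and 3 below all other libraries, as Prkce has. Since all of these hosts were picked by likeness over the same 6 libraries, the shared low libraries follow from the choice. Prkcb and Prkce differed from each other by 1.02 on this measure.

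CircRNA levels of cell type marker genes were set beside these values. Of 13 hippocampal neuron markers 6 had a circRNA, summing to 1287 to 1558 in the Control libraries and 2456 to 3392 in the CUS libraries, and Slc17a7, Neurod6 and Wfs1 had none, so the tissue label could be checked only in part. The sums were 1085 to 1525 in the Control libraries and 1710 to 2642 in the CUS libraries for 4 of 9 astrocyte markers, 1374 to 2040 and 2039 to 2990 for 5 of 10 oligodendrocyte markers, and 1246 to 2862 and 1702 to 4750 for 3 of 9 interneuron markers. None of 7 microglial markers had a circRNA, and 2 of 8 vascular and choroid markers and 1 of 7 markers of neighbouring regions had one, at 0 to 454 in the Control libraries and 0 to 233 in the CUS libraries and at 0 and 0 to 277. Defining markers such as Gad1, Aqp4 and Cldn5 had none. The part of these differences in the Prkcb and Prkce values was not tested.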

How the data were processed

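Hippocampal circRNAs were measured in 3 Control and 3 CUS libraries, grouped by sample title. The authors deposited a single table of log10 values, with an identifier, Ensembl host identifiers and a class for each circRNA. Per the labels' protocols, libraries were poly(A)-selected, stranded, with molecular identifiers, and sequenced as read pairs. Per the submitters' processing notes, mm9, StringTie, DESeq and edgeR were involved, with no role stated. The tool that called circRNAs was not stated in the sources used here. The deposited log10 values hold no unit, and 10 to each value gave whole multiples (within 0.05) of a library-specific step for 100% of values under 300 steps (lowest value 17 steps). The meaning of a step is unknown.

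Levels were taken as 10 to the value, with 0 kept at 0. GENCODE vM21 (GRCm38) gave symbols for 4467 of 4483 host identifiers. Of 786 circRNAs with several hosts, 583 went to their only protein-coding host and 203 to none, and 3772 host sums covered 9791 circRNAs. CUS was set against Control with limma 3.58.1 (R 4.3.3, eBayes with a trend) on log2(level + 45.5), the pseudocount being each library's lowest level above 0, as a median. Features above 0 in at least 3 of 6 libraries were tested and p-values adjusted by Benjamini-Hochberg over the whole table at 0.05. The code was tested on simulated data. Fold changes on this scale understate the change of low circRNAs.

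The members and gene lists were chosen with earlier results of these data known. By rule, the text named each Prkcb or Prkce circRNA above 0 in at least 3 libraries or among the 5 highest of its gene, each PKC family host, the 2 hosts of smallest p in each direction per pathway list, and the 3 hosts of most similar profile, with the remaining members named after their values were seen. A few items under this rule are not reported here. Same-numbered libraries did not deviate together (correlations of -0.01, -0.03 and -0.02 over the tested circRNAs), so replicate numbers were not taken as pairs. Sums and plots used Python 3.11.15 with pandas 2.3.3, numpy 2.4.6 and matplotlib 3.10.9.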

Additional observations from a re-analysis of the deposited data

How the results depend on the processing

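Limma called 0 circRNAs and 0 host sums at an adjusted p under 0.05 under each alternative run (other pseudocounts, filters, scalings, no trend, a replicate block and each library left out). At an unadjusted p under 0.05, the 234 circRNAs and 127 host sums became 32 and 53 among those above 0 in all 6 libraries, where fewer were tested, and 94 to 135 and 80 to 105 with a library left out. The log2 difference of the Prkcb sum stayed below 0 under the other pseudocounts, scalings, replicate block and left-out libraries, from -1.23 to -0.11 with a library left out. It was -0.38 over circRNAs listing Prkcb alone. In settings chosen after seeing the data, it was -0.52 without mmu_circRNA009661 and -1.52 without mmu_circRNA009656. The latter is above 0 in the CUS libraries alone, so leaving it out can only lower the CUS side. The Prkce difference stayed below 0 in the same settings, from -1.21 to -0.63 with a library left out, and was -1.43 without mmu_circRNA004909, also chosen after seeing the data. The replicate block left both at -0.76 and -0.85. With a library left out, the difference in leading share ranged from -25.3 to 41.5 percentage points for Prkcb. The highest value, without Control replicate 2, belongs to mmu_circRNA009656, which is listed at 0 in Control, so it could only be above 0. With the highest circRNA of each library the Prkcb difference was 9.65. For Prkce the difference ranged from 8.11 to 22.5 with a library left out. Of 143 values for 13 named circRNAs, 5 moved by more than the spread between libraries, all with another pseudocount, in mmu_circRNA009656, mmu_circRNA009657 and mmu_circRNA009658. Each of these is listed at 0 throughout a group, so its fitted difference follows the pseudocount and is not given. A further 7 changed sign, each with a library left out, in mmu_circRNA004910, mmu_circRNA009654 and mmu_circRNA009660. The read depth behind each value is unknown, so a value of 0 sets no limit on the level.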
